A study of Mus musculus with 12 samples.

Results

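Transforming growth factor beta (TGF-beta) ligands, their receptors and the latent binding proteins that store them were followed here through 10 genes: the ligands Tgfb1, Tgfb2 and Tgfb3, the signalling receptors Tgfbr1 and Tgfbr2, the co-receptors Tgfbr3 and Eng, the signal transducer Smad3, and the latent binding proteins Ltbp1 and Ltbp2. They were picked by symbol from a table of 29462 genes, each had 1 row, and all 10 passed the filter on low values. They were measured in 12 RNA-seq libraries of primary vascular smooth muscle cells of the mouse aorta, numbered by replicate within a genotype. The genotypes are C57BL/6J (WT, 6 libraries) and a global knockout of CSE, the enzyme cystathionine gamma-lyase that Cth encodes (KO, 6 libraries). Cells of both genotypes were kept in DMEM with serum and were exposed to 1 uM angiotensin II, a peptide hormone that constricts vessels, for 24 h. Every library is therefore from treated cells, and no effect of the hormone itself can be derived. The age and sex of the mice are not given in the sources used here, nor is the origin of a genotype's libraries in 1 or several animals or cultures. All p-values thus rest on library-to-library spread alone, some or all of which may be technical.

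TGF-beta ligands are secreted as dimers held inactive by their own propeptide, and LTBP1 ties this latent complex to the fibres of the extracellular matrix until integrins, proteases or thrombospondin release the ligand. The freed ligand binds the kinase TGFBR2, which recruits and activates the kinase TGFBR1, and this phosphorylates SMAD2 and SMAD3, which enter the nucleus with SMAD4. In the aorta the pathway is known for its control of matrix synthesis and of the smooth muscle phenotype, and mutations in TGFB2, TGFB3, TGFBR1, TGFBR2 and SMAD3 cause inherited aortic aneurysm in people.

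Some facts of the whole series bear on every value below. Levels are FPKM, fragments scaled by the length of the gene and the mapped fragments of the library, which summed to between 255538.4 and 281431.6 per library; depth in reads is unknown. Cth was listed at no more than 0.08 FPKM in any WT and 0.02 in any KO library, so its RNA does not check the genotype labels. Xist ranged from 0.01 to 0.04 FPKM over WT and from 0.31 to 3.53 over KO libraries, and the Y-linked Ddx3y from 9.87 to 11.81 and from 3.49 to 6.78; the sex makeup of the cultures and the genotype cannot be told apart. KO libraries 5 and 6 stood apart: across tested genes, their levels correlated at 0.947 to 0.96 with those of KO libraries 1 to 4, where pairs within the latter reached at least 0.993. The 10 genes are therefore described with and without them, and the pathway lists by counts both ways. Of the smooth muscle markers, Acta2 was high (120.1 ± 11.1 FPKM in WT and 101.8 ± 32.3 in KO), but Myh11, Cnn1 and Myocd were at most 0.24 FPKM in every library, and only 2 of the 10 contractile markers reached a mean of 1 FPKM in either genotype, so the name smooth muscle cell is that of the labels. In bulk RNA, fewer cells of a type and less RNA per cell cannot be told apart.

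The 3 ligand genes, the receptor kinases, Eng and Smad3 were lower in KO, whereas both latent binding protein genes were higher. By limma on log2(FPKM + 1), with p-values adjusted over the 11831 genes tested, 9 of the 10 genes passed 0.05, 7 lower and 2 higher in KO; Tgfbr3 did not. The background is high: 63.5% of all tested genes passed, 30.9% lower and 32.6% higher in KO. The KO and WT values did not overlap in 8 of the 10 genes, against 46.4% of all tested genes. Tgfb2, Tgfb3, Tgfbr2, Eng and Ltbp2 were called and moved by at least 1 on the log2(FPKM + 1) scale, as did 9.74% of tested genes. With KO libraries 1 to 4 only, all 10 passed, 7 lower and 3 higher, where 77.1% of all tested genes did, 37.1% lower and 39.9% higher.

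**Figure D1:**
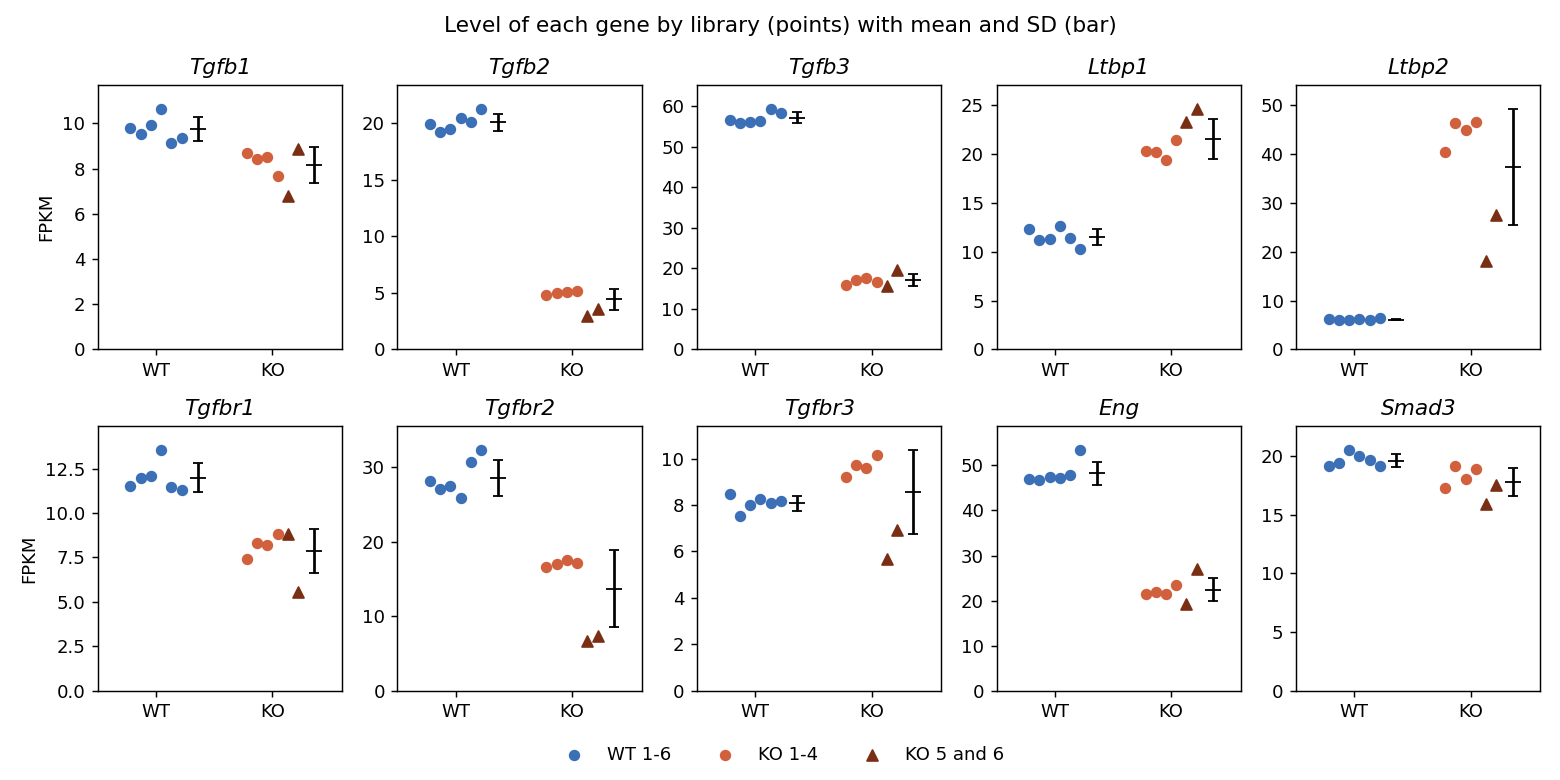
FPKM of each of the 10 genes (vertical axes, each from 0) in the 6 WT and 6 KO libraries; circles are WT and KO libraries 1 to 4, triangles are KO libraries 5 and 6, and the bar beside each group is the mean ± SD over 6 libraries. Tgfb2, Tgfb3 and Eng lie far lower in every KO library, Ltbp2 far higher, and in Tgfbr2, Tgfbr3 and Ltbp2 the triangles lie below the other KO points.

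Tgfb3, the most abundant ligand gene in these cells, fell by the widest margin in absolute level. It lies on chromosome 12 from 86056745 to 86079041, minus strand (GRCm38, GENCODE M21). In WT it measured 56.64, 55.86, 56.11, 56.23, 59.25 and 58.3 FPKM, compared with KO values of 15.81, 17.21, 17.67, 16.62, 15.59 and 19.68. Every KO library was far below every WT library, and KO libraries 5 and 6 held the lowest and the highest KO value. The mean went from 57.1 ± 1.38 to 17.1 ± 1.49 FPKM (SD, n = 6 each), which is 3.34-fold lower (log2 difference -1.69 ± 0.057 SE, limma adjusted p = 2.6e-11).

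Tgfb2, the ligand known for its part in the development of the heart and great vessels, had the largest relative fall of the 10 genes. Its gene is on chromosome 1 from 186622792 to 186705989, minus strand. It stood at 19.95, 19.23, 19.53, 20.5, 20.15 and 21.28 FPKM in WT, and at 4.81, 4.98, 5.08, 5.15, 2.92 and 3.57 in KO. The 2 groups did not overlap, and KO libraries 5 and 6 were the lowest. The fall from 20.1 ± 0.729 to 4.42 ± 0.939 FPKM was 4.55-fold (log2 difference -1.98 ± 0.106 SE, adjusted p = 2.8e-09), and 4.02-fold with KO libraries 1 to 4 only. Among tested genes, 2.38% differed by more in either direction.

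Tgfb1, the ligand most studied in fibrosis and immune control, changed little. On chromosome 7 from 25687002 to 25705077, its WT values were 9.79, 9.55, 9.94, 10.64, 9.15 and 9.35 FPKM and its KO values 8.67, 8.44, 8.52, 7.67, 6.8 and 8.85. Every KO value lay below every WT value, by as little as the gap between 8.85 and 9.15. The mean was 1.19-fold lower in KO, at 8.16 ± 0.779 against 9.74 ± 0.527 FPKM (log2 difference -0.23 ± 0.064 SE, adjusted p = 0.0064), and 62% of tested genes differed by more.

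The summed ligand level was lower in KO and its makeup differed. The 3 ligands together held 84.6 to 88.9 FPKM in the WT libraries and 25.3 to 32.1 in the KO libraries. Tgfb3 made up 65.7% ± 0.825 of that sum in WT and 57.7% ± 3.08 in KO, and Tgfb2 23.1% ± 0.481 and 14.8% ± 2.77. The share of Tgfb1 went from 11.2% ± 0.689 to 27.5% ± 1.18, with 26.1 to 29.6% in each of the 6 KO libraries. Tgfb1 was thus the lowest of the ligands in all WT libraries and the second in all KO libraries. In KO libraries 5 and 6, Tgfb2 took only 11.5 and 11.1%, against 16.2 to 17.5% in KO libraries 1 to 4.

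**Figure D2:**
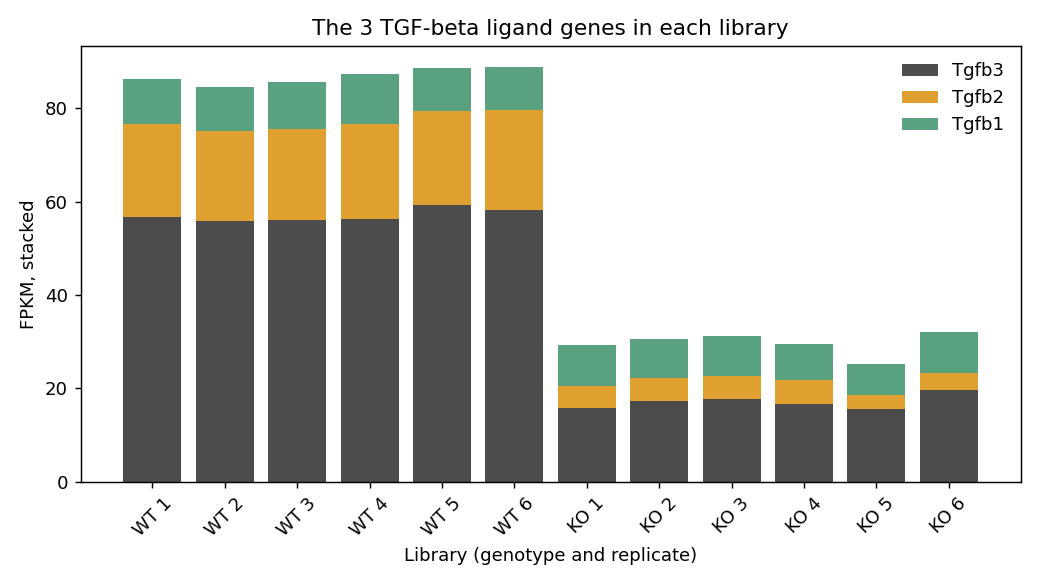
Stacked FPKM (vertical axis, from 0) of Tgfb3, Tgfb2 and Tgfb1 in each of the 12 libraries (horizontal axis). The WT bars reach 84.6 to 88.9 FPKM and the KO bars 25.3 to 32.1, while the Tgfb1 segment is nearly as tall in KO as in WT.

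Ltbp2 was the member that rose most. It encodes a matrix protein of the elastic fibre which, unlike LTBP1, is not known to bind latent TGF-beta. The gene is on chromosome 12 from 84783212 to 84876532, minus strand. Its WT values were 6.25, 5.94, 5.99, 6.22, 6.02 and 6.33 FPKM and its KO values 40.3, 46.43, 44.94, 46.63, 18 and 27.57. All KO libraries were higher than all WT libraries, and KO libraries 5 and 6 lay between the WT libraries and the other KO libraries. The rise from 6.12 ± 0.161 to 37.3 ± 11.9 FPKM was 6.09-fold (log2 difference 2.35 ± 0.196 SE, adjusted p = 2.4e-07); it was 7.28-fold with KO libraries 1 to 4 only, and the mean of KO libraries 5 and 6 was 3.72 times that of WT. It went from the lowest of the 10 mean levels in WT to the highest in KO.

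Ltbp1, which binds the latent complex and anchors it to fibrillin and fibronectin fibres, rose less and more evenly. The gene is on chromosome 17 from 75005568 to 75392512. Its WT values were 12.28, 11.15, 11.33, 12.65, 11.41 and 10.24 FPKM, against 20.33, 20.2, 19.34, 21.42, 23.29 and 24.59 in KO. The groups did not overlap, and here KO libraries 5 and 6 were the highest. The mean rose 1.87-fold, from 11.5 ± 0.858 to 21.5 ± 2.02 FPKM (log2 difference 0.85 ± 0.069 SE, adjusted p = 1.8e-07). Set against the summed ligands of the same library, Ltbp1 stood at 0.115 to 0.145 FPKM per ligand FPKM in WT and at 0.618 to 0.92 in KO. The ratio of Ltbp2 to Ltbp1 was 0.492 to 0.618 in WT, 1.98 to 2.32 among KO libraries 1 to 4, and 0.773 and 1.12 for the remaining KO libraries.

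The start regions of these genes are shown for the ligand that fell most, the ligand that changed least, and the 2 members that rose, since such pairs move in opposite ways in the same libraries. Each runs from 250 bases before to 50 bases after the annotated start (RefSeq, GRCm38.p6, a build other than the mm9 named in the submitters' processing notes), on the strand of the gene. Capitals mark every match, on either strand, to the TATA box TATAAA, the GC box GGGCGG, the cAMP response element TGACGTCA and CAGAC, which holds a SMAD-binding half-site; none of the marked matches overlap. The windows are chr1:186705940-186706239 (minus strand) for Tgfb2, chr7:25686752-25687051 (plus) for Tgfb1, chr17:75005279-75005578 (plus) for the upstream start of Ltbp1 and chr12:84876442-84876741 (minus) for Ltbp2.
Tgfb2: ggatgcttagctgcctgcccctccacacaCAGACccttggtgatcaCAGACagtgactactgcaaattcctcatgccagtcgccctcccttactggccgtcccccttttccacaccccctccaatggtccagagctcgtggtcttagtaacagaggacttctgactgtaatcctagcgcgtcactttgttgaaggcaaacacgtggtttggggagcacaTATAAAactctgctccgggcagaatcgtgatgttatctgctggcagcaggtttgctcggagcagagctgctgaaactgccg
Tgfb1: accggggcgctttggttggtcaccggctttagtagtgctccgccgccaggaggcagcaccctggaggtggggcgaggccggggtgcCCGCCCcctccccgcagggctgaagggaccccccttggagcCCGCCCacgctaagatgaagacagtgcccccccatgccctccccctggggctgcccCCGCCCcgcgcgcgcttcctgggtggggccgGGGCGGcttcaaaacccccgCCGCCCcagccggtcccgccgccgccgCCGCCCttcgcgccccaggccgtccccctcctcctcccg
Ltbp1: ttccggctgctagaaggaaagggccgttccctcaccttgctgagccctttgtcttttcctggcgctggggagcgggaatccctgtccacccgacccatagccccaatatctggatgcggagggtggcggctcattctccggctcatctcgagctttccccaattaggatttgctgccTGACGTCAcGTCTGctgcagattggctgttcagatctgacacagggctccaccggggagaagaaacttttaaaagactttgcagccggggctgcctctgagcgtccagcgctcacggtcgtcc
Ltbp2: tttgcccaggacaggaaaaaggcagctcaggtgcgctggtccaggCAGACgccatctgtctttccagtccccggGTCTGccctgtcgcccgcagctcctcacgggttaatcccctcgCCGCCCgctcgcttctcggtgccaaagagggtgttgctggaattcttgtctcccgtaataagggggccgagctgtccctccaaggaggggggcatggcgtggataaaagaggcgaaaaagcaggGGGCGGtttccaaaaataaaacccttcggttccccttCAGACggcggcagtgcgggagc

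The Tgfb2 window held 1 TATA box, with its first base at -31 from the start site, and CAGAC at -221 and -204, but no GC box. The Tgfb1 window, with 77% G and C, held 6 GC boxes and none of the other motifs. The Ltbp1 window held 1 cAMP response element at -73 and CAGAC on the other strand at -64, and that of Ltbp2 held 3 matches to CAGAC and 2 GC boxes. Of all 32851 RefSeq start windows of this length, 13.6% held TATAAA, 35.7% GGGCGG, 1.79% TGACGTCA and 49.6% CAGAC, and their median G and C content was 52.7%. A window was at hand for 8 of the 10 genes, and no TATA box was found in the windows of the 7 other than Tgfb2. A match is a stretch of letters in the window and was not tested as a binding site.

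Tgfbr2, the kinase that binds the ligand, fell, and did so unevenly among KO libraries. It is on chromosome 9 from 116084293 to 116175360, minus strand. In WT it measured 28.22, 27.07, 27.45, 25.92, 30.78 and 32.32 FPKM, and in KO 16.57, 16.99, 17.63, 17.16, 6.71 and 7.4. All KO values were below all WT values, and KO libraries 5 and 6 formed a lower pair. The mean fell 2.08-fold, from 28.6 ± 2.43 to 13.7 ± 5.2 FPKM (log2 difference -1.1 ± 0.224 SE, adjusted p = 0.00078). With KO libraries 1 to 4 only the fall was 1.68-fold (log2 difference -0.71 ± 0.055 SE, adjusted p = 1.3e-07), while the mean of KO libraries 5 and 6 was 4.06-fold below WT.

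Tgfbr1, the partner kinase that phosphorylates SMAD2 and SMAD3, fell as well. The gene is on chromosome 4 from 47353222 to 47414931. Its WT values were 11.5, 11.97, 12.07, 13.54, 11.48 and 11.28 FPKM, against 7.44, 8.34, 8.23, 8.84, 8.85 and 5.58 in KO. The groups did not overlap; KO replicate 6 was the lowest, but KO replicate 5 was the highest of its group, so these 2 libraries did not pair here. The fall was 1.52-fold, from 12 ± 0.826 to 7.88 ± 1.24 FPKM (log2 difference -0.56 ± 0.093 SE, adjusted p = 0.00016). Tgfbr2 exceeded Tgfbr1 by a ratio of 1.91 to 2.87 in WT and 1.94 to 2.23 in KO libraries 1 to 4, whereas the ratio was 0.758 in KO replicate 5 and 1.33 in KO replicate 6.

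Eng, endoglin, a co-receptor best known from endothelial cells, where it acts with BMP9 and TGF-beta, also fell. On chromosome 2 from 32646595 to 32682669, it measured 46.93, 46.78, 47.48, 47.18, 47.82 and 53.38 FPKM in WT, against 21.44, 21.95, 21.4, 23.36, 19.35 and 26.98 in KO. The 2 groups lay far apart, and the highest value in each was that of replicate 6. The mean fell 2.15-fold, from 48.3 ± 2.54 to 22.4 ± 2.58 FPKM (log2 difference -1.08 ± 0.071 SE, adjusted p = 2.3e-08). Markers of endothelial cells were low: the 12 listed, Eng not among them, summed to 2.11 to 2.33 FPKM in WT and 1.91 to 3.36 in KO. Means in WT and KO were 0.00167 and 0.00333 FPKM for Cdh5 and 0.137 and 0.0867 for Pecam1. Flt1 was the highest in both, at 1.54 and 0.918. Kdr (0.00333 and 0.623) and Erg (0 and 0.15) had higher means in KO.

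Tgfbr3, betaglycan, the co-receptor that presents TGF-beta2 to TGFBR2, was the member whose KO libraries split. It is on chromosome 5 from 107106570 to 107289629, minus strand. It measured 8.48, 7.52, 7.98, 8.27, 8.09 and 8.16 FPKM in WT, compared with KO values of 9.2, 9.71, 9.61, 10.17, 5.69 and 6.92. KO libraries 1 to 4 were above every WT library and KO libraries 5 and 6 below every one. With all libraries the means were 8.08 ± 0.324 and 8.55 ± 1.81 FPKM and the test did not pass (log2 difference 0.05 with a 95% interval of -0.2 to 0.3, adjusted p = 0.73). With KO libraries 1 to 4 only it rose 1.2-fold (log2 difference 0.23 ± 0.038 SE, adjusted p = 0.00013). The ratio of Eng to Tgfbr3 was 5.53 to 6.54 in WT and 2.23 to 3.9 in KO.

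Smad3, the transcription factor that carries the signal to the nucleus, differed least among the genes that passed. It is on chromosome 9 from 63646767 to 63757994, minus strand. Its WT values were 19.18, 19.4, 20.49, 20.02, 19.63 and 19.11 FPKM and its KO values 17.31, 19.17, 18.04, 18.92, 15.94 and 17.5. The groups overlapped, since KO replicate 2 lay above WT replicate 6. The mean was 1.1-fold lower, at 17.8 ± 1.18 against 19.6 ± 0.532 FPKM (log2 difference -0.14 ± 0.051 SE, adjusted p = 0.034), and 77.1% of tested genes differed by more. The call was lost with TPM scaling (adjusted p = 0.078) and without WT replicate 2, 3, 4 or 5 or KO replicate 1 (adjusted p = 0.052 to 0.075).

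**Figure D3:**
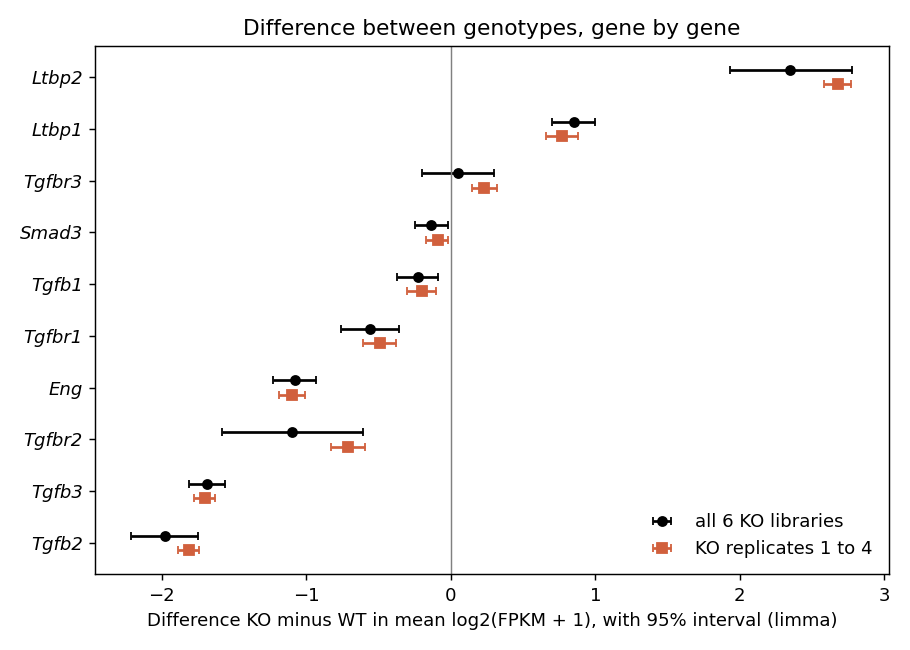
Difference between KO and WT in mean log2(FPKM + 1) (horizontal axis) for each gene (vertical axis, ordered by size), with 95% intervals from limma; black circles use all 6 KO libraries and orange squares KO libraries 1 to 4 only. The interval of Tgfbr3 spans 0 with all libraries (-0.2 to 0.3) and lies above 0 with KO libraries 1 to 4 (0.15 to 0.32); no gene changes sides of 0.

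The order of the levels changed between the genotypes. In WT it ran from Tgfb3 (57.1 FPKM) through Eng (48.3), Tgfbr2 (28.6), Tgfb2 (20.1), Smad3 (19.6), Tgfbr1 (12), Ltbp1 (11.5), Tgfb1 (9.74) and Tgfbr3 (8.08) to Ltbp2 (6.12). Among these neighbours the ranges over 6 libraries overlapped for Tgfb2 with Smad3, Tgfbr1 with Ltbp1, and Ltbp1 with Tgfb1, and were apart for the other pairs. In KO the order was Ltbp2 (37.3), Eng (22.4), Ltbp1 (21.5), Smad3 (17.8), Tgfb3 (17.1), Tgfbr2 (13.7), Tgfbr3 (8.55), Tgfb1 (8.16), Tgfbr1 (7.88) and Tgfb2 (4.42). There the ranges of neighbours overlapped except between Ltbp1 and Smad3 and between Tgfbr1 and Tgfb2. This order pools unlike KO libraries. Over KO libraries 1 to 4, Ltbp2 (40.3 to 46.63) was clear of Eng (21.4 to 23.36), and Tgfbr2 (mean 17.1) lay just above Tgfb3 (16.8). In KO replicate 5, Ltbp2 (18) was below both Ltbp1 (23.29) and Eng (19.35). The 6 KO libraries also varied more among themselves. The SD was 2.42 to 8.5% of the mean over the 10 genes in WT, and 6.63 (Smad3) to 37.8% (Tgfbr2) in KO. With KO libraries 1 to 4 only, the SD was smaller for each of the 10 genes. Tgfbr2 then had 17.1 ± 0.439 FPKM, Tgfbr3 9.67 ± 0.398 and Ltbp2 44.6 ± 2.95, so much of the wider KO spread lay in libraries 5 and 6.

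Markers of other cell types and of contractile smooth muscle moved with the genotype or with KO libraries 5 and 6, and their part in these results was not tested. The 10 contractile markers, nearly all Acta2 and Smtn by level, summed to 123.9 to 152.6 FPKM in WT, 86.4 to 96 among KO libraries 1 to 4, and 155 and 168.8 for KO libraries 5 and 6. Acta2 alone ranged from 75.28 to 85.09 FPKM over KO libraries 1 to 4 and reached 141.13 and 145.52 in the other KO libraries; it did not pass with all libraries (log2 difference -0.29, adjusted p = 0.14) and was lower with KO libraries 1 to 4 only (-0.56, adjusted p = 3.9e-06). The 10 fibroblast markers summed to 926.3 to 983.8 FPKM in WT and 1188.8 to 1274.5 among KO libraries 1 to 4, but only 629.4 and 842 for KO libraries 5 and 6; 5 of them reached a mean of 1 FPKM in WT and 7 in KO, while Lum and Pi16 were at most 0.09 FPKM in every library.

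The 10 epithelial and mesothelial markers summed to 146 to 154.8 FPKM in WT and 44.6 to 68.1 in KO. Most of that sum was Cdh1, E-cadherin, with means of 65 ± 1.69 FPKM in WT and 0.86 ± 0.314 in KO, and the keratin gene Krt19, with 78.5 ± 3.54 and 50.1 ± 6.25. The mesothelial markers did not move together. Upk3b (0.448 and 2.1 FPKM) and Wt1 (0.117 and 1.51) had higher means in KO. Msln had a lower one (5.96 ± 0.183 and 3.61 ± 1.83 FPKM), with 1.13 and 1.38 in KO libraries 5 and 6. Epcam and Krt7 stayed at or below 0.15 in every library, and 3 of 10 markers reached a mean of 1 FPKM in WT and 4 in KO. The 10 macrophage markers summed to 39.1 to 47 FPKM in WT and 41.2 to 57.2 in KO, with 2 and 4 at a mean of 1 FPKM or more. Cd14 had similar means (39.5 ± 2.95 and 39.9 ± 4.53 FPKM), while those of Cd68 (1.62 and 8.19), Csf1r (0.707 and 3.05) and Lyz2 (0.1 and 1.07) were higher in KO. The defining markers Ptprc and Adgre1 were at most 0.04 FPKM in every library.

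Genes whose profile over the 12 libraries was most like that of the steepest fall and the steepest rise were found by the root mean square difference of centred log2(FPKM + 1) values. Nearest to Tgfb2 were Ptprf, a receptor tyrosine phosphatase (0.0762), Plekha6 (0.0802) and Angptl2, a secreted angiopoietin-like protein (0.0864). Ptprf went from 12.2 ± 0.823 to 2.66 ± 0.77 FPKM, with 1.51 and 1.87 in KO libraries 5 and 6. Plekha6 went from 5.71 ± 0.543 to 0.613 ± 0.282 FPKM, with no KO library above 0.88, so it passed the filter through WT only. Nearest to Ltbp2 were Tshz2, a zinc finger factor (0.0815), the growth factor gene Igf2 (0.119) and Pdgfra, the PDGF receptor that marks fibroblasts (0.128). Tshz2 averaged 0.0683 ± 0.024 FPKM in WT and 4.63 ± 1.93 in KO, so it passed the filter through KO only. The log2(FPKM + 1) scale understates changes at such low levels, so nearness on it is not likeness of fold. Igf2 averaged 10.5 ± 0.736 FPKM in WT, while KO libraries 1 to 4 ranged from 59.84 to 66.71, and KO libraries 5 and 6 had 32.97 and 43.02. For Pdgfra the same values were 1.08 ± 0.236, 11.3 to 13.43, and 5.09 and 6.03.

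Genes of the list for the latent form of TGF-beta and its activation mostly rose. Not all of them favour activation, so their counts give no direction of ligand release. Of 23 in the table, 19 were tested; 12 rose, 5 fell and 2 did not pass, so that 89.5% were called where 63.5% of all tested genes were, 32.6% higher and 30.9% lower. The median log2 difference was 0.67, and 0.01 over all tested genes. With KO libraries 1 to 4 only 13 rose and 6 fell, where 77.1% of all tested genes were called. Ltbp4, the relative of LTBP1 needed for elastic fibres, fell from 15.5 ± 0.641 to 2.32 ± 0.896 FPKM (6.71-fold, adjusted p = 3.7e-08), in the opposite direction to Ltbp1 and Ltbp2. Furin, the protease that cuts the propeptide from the ligand, rose 1.82-fold to 11.9 ± 1.01 FPKM, and Fn1, the fibronectin to which latent complexes attach, fell 3.03-fold from 1113 ± 38.9. The genes that follow were named after their values were seen. Fbn1, fibrillin-1, fell 2.06-fold from 56.6 ± 2.11 FPKM (adjusted p = 7e-05), and Thbs1, the thrombospondin that activates latent TGF-beta, rose 2.49-fold from 123.2 ± 6.73 FPKM (adjusted p = 1.9e-05). Lrrc32, which displays latent TGF-beta on the cell surface, rose from 0.788 ± 0.11 to 5.23 ± 2.55 FPKM (adjusted p = 0.00015). KO libraries 5 and 6 had the low values 1.39 and 2.58. No WT library exceeded 0.94 FPKM, so Lrrc32 passed the filter through KO only. Of the integrin subunits that bind the latent form, Itgb3 fell 1.91-fold and Itgb1 1.2-fold, Itgav rose 1.22-fold (adjusted p = 0.007; 0.083 with quantile normalization), and Itgb6 and Itgb8 were near 0 in both genotypes. Ltbp3 averaged 26.9 ± 0.591 FPKM in WT; KO libraries 1 to 4 ranged from 39.22 to 44.05, and KO libraries 5 and 6 had 20.44 and 28.15. It did not pass with all libraries (adjusted p = 0.06) but did without KO replicate 5 (0.00056), without KO replicate 6 (0.036), without both (4.3e-09) and with TPM scaling (0.043).

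The list of other genes tied to SMAD2/3 transduction split evenly. It mixes genes of unlike roles, so its counts give no direction of the signal. Of 20 tested, 9 rose, 8 fell and 3 did not pass (85% called, against 63.5% of all tested genes), and the median log2 difference was 0.01, as over all genes. The counts were also 9 and 8 with KO libraries 1 to 4 only, where 77.1% of all tested genes were called. Smad4, the shared partner of the receptor SMADs, fell 1.61-fold from 32.8 ± 1.04 to 20.3 ± 2.55 FPKM (adjusted p = 6.8e-06), and Smad2 1.38-fold from 9.07 ± 0.284 to 6.58 ± 0.443 (adjusted p = 9.8e-06). Dab2, an endocytic adaptor that binds TGF-beta receptors and SMADs, rose 3.9-fold from 8.32 ± 0.251 to 32.4 ± 3.91 FPKM (adjusted p = 2.3e-10).

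Inhibitors of the pathway went both ways. Among 16 tested, 5 rose, 7 fell and 4 did not pass, with a median of -0.05; the 75% called is near the 63.5% of all tested genes. Without KO libraries 5 and 6, 7 rose and 8 fell, where 77.1% of all tested genes were called, 39.9% higher and 37.1% lower. Pmepa1, a feedback inhibitor that sequesters SMAD2 and SMAD3 and is itself induced by TGF-beta, rose 4.91-fold from 3.75 ± 0.26 to 18.4 ± 1.21 FPKM (adjusted p = 4.4e-12). Nedd4l, a ubiquitin ligase for activated SMADs, rose 2.46-fold to 3.13 ± 0.147 FPKM, and Fmod, a proteoglycan that can bind TGF-beta, fell 139.6-fold to 0.108 ± 0.0417. No KO library exceeded 0.16 FPKM of Fmod, so it passed the filter through WT only and its fold rests on low KO values. Peg10, counted among the rises and named after its values were seen, passed through KO only (0 to 0.01 FPKM in WT and 1.29 to 3.18 in KO). Smad7, the feedback inhibitor of TGFBR1, chosen after its values were seen, fell 2.52-fold from 15.1 ± 0.792 to 6 ± 1.27 FPKM (adjusted p = 2.8e-07). Pmepa1 and Smad7, 2 feedback genes of the list among others, thus moved in opposite directions.

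Activins signal through the same SMAD2 and SMAD3. The genes of the list of activins, related ligands, receptors and inhibitors mostly rose. Not all of them carry this signal: Fstl3, among the rises, is an inhibitor and is not the only rise of that kind. The counts therefore give no direction of the signal. Of 13 in the table, 10 were tested; 6 rose, 2 fell and 2 did not pass, with a median of 0.77 and 80% called, against 63.5% of all tested genes, 32.6% of them higher. With KO libraries 1 to 4 only 7 rose and 2 fell, where 77.1% of all tested genes were called, 39.9% higher and 37.1% lower. Inhbb, the activin B subunit, fell 14.6-fold from 9.75 ± 1.04 to 0.667 ± 0.382 FPKM (adjusted p = 1.8e-09). Gdf11, a ligand of the activin receptors, rose 2.18-fold to 16.6 ± 1.66 FPKM, and Fstl3, an activin-binding inhibitor, rose 2.25-fold to 6.21 ± 0.822. The other fall, that of Acvr2a, was small (1.28-fold, adjusted p = 0.024) and did not pass when WT replicate 4 (adjusted p = 0.05) or WT replicate 5 (0.053) was left out, or with no filter on low values (0.052). Inhba, the activin A subunit, named after its values were seen, rose 1.86-fold from 4.91 ± 0.283 to 9.1 ± 2.82 FPKM (adjusted p = 0.00038).

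Genes known to be induced by TGF-beta in mesenchymal cells went in both directions. Of 29 in the table, 17 were tested; 8 rose, 4 fell and 5 did not pass, with a median of 0.32; the 70.6% called is near the 63.5% of all tested genes. Without KO libraries 5 and 6, 9 rose and 5 fell, where 77.1% of all tested genes were called, 39.9% higher and 37.1% lower. Snai1, a transcriptional repressor of epithelial genes, rose from 0.382 ± 0.224 to 17.9 ± 3.06 FPKM (46.9-fold, adjusted p = 1.1e-11). No WT library exceeded 0.81 FPKM, so Snai1 passed the filter through KO only and its fold rests on low WT values. Its relative Snai2 fell 9.17-fold from 21.8 ± 2.5 to 2.38 ± 0.277 (adjusted p = 5.2e-12). Those named from here on were chosen after their values were seen. Ccn2, connective tissue growth factor, rose 2.87-fold to 36.1 ± 11 FPKM (adjusted p = 3e-06) and Cdkn2b, a cell cycle inhibitor, 3.52-fold to 11.2 ± 1.65, and the 4 collagen genes of the list differed from each other. Col3a1 rose 179.5-fold, from 0.593 ± 0.0948 to 106.5 ± 65.3 FPKM (adjusted p = 4.2e-07). It ranged from 140.79 to 154.74 over KO libraries 1 to 4 but had 19.57 and 25.31 in the other KO libraries. No WT library exceeded 0.71 FPKM, so Col3a1 too passed the filter through KO only. Col1a2 fell 1.73-fold from 298.9 ± 7.75 (log2 difference -0.9, adjusted p = 0.0051), and by less with KO libraries 1 to 4 only (log2 difference -0.48, adjusted p = 2.7e-08). Col1a1, the other chain of type I collagen, did not pass with all libraries (487.7 ± 10.2 and 624 ± 141.4 FPKM, adjusted p = 0.069); leaving out KO replicate 5 gave an adjusted p of 3.6e-05. Col5a1 did not pass (33.3 ± 1.06 and 28.8 ± 5.82 FPKM, adjusted p = 0.12) except with quantile normalization, where it was lower in KO (adjusted p = 0.024). Below the filter, Tgfbi averaged 0.407 ± 0.133 FPKM in WT against 3.5 ± 2.13 in KO, and Has2, listed at 0 in all WT libraries, at 0.928 ± 0.185 in KO.

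**Figure D4:**
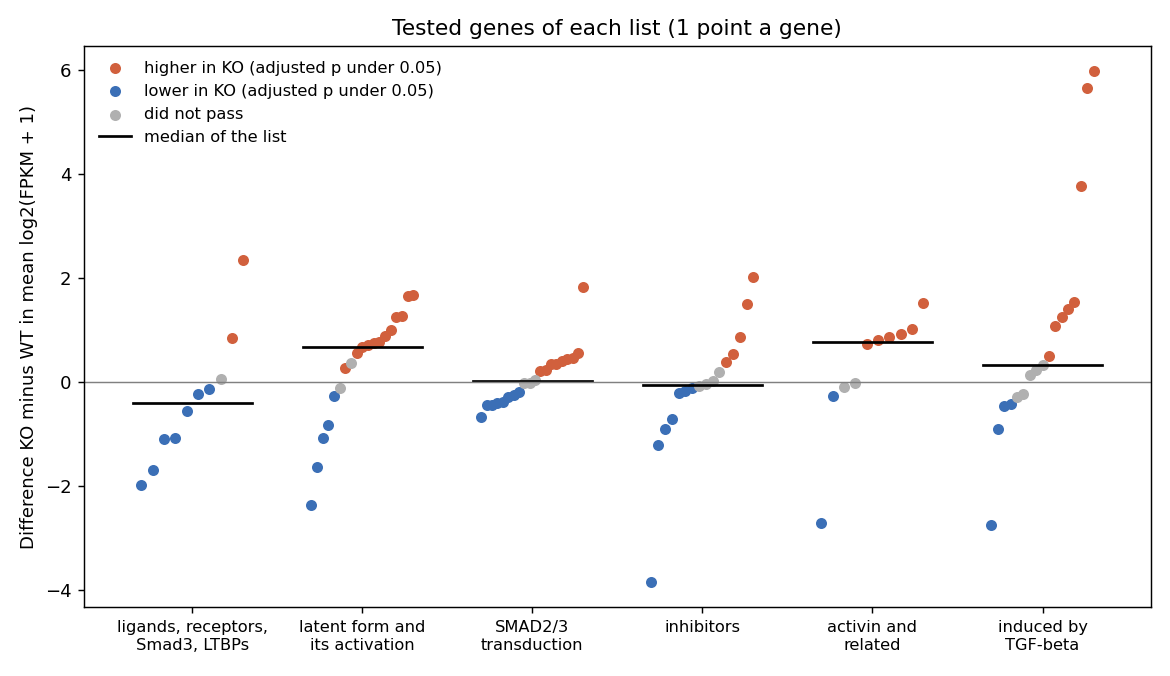
Difference between KO and WT in mean log2(FPKM + 1) (vertical axis) for every tested gene of the 10 described first and of 5 further lists (horizontal axis); orange points are higher and blue points lower in KO at an adjusted p under 0.05, grey points did not pass, and the black line is the median of the list. The medians are -0.4 for the ligands, receptors, Smad3 and latent binding proteins, 0.67 for the latent form and its activation, 0.01, -0.05, 0.77 and 0.32.

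In the authors' deposited table, which gives the ratio of WT over KO, 5 of the 10 genes are marked significant, Tgfb2, Tgfb3, Tgfbr2, Eng and Ltbp2, where 15% of all its rows are. The authors' deposited table lists log2 ratios of 2.19, 1.74, 1.06, 1.11 and -2.61 for these, in that order. The mark is not the q-value alone. Among the genes not marked, the authors' unnamed test gave q-values listed to 2 decimals as 0 for Tgfb1, Tgfbr1 and Ltbp1. It gave 0.01 for Smad3 and 0.82 for Tgfbr3.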

How the data were processed

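RNA for 12 libraries was sequenced as strand-marked, polyadenylated libraries with paired ends, per the labels' protocols. The submitters' processing notes list the tools StringTie 1.3.4d, HISAT2 2.0.4, cutadapt 1.9, edgeR and DESeq2, and mm9 as the build, with no roles. The deposited values are FPKM made by the authors, with 2 decimals; no counts were used here, so no count test was run, and an FPKM depends on what the rest of its library holds. The same deposited table holds the authors' ratio of mean FPKM of WT over KO, its log2 and a p-value and q-value, made with a test that no source used here names. Columns of samples from elsewhere numbered 0.

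The 11831 genes that reached 1 FPKM in 6 or more libraries were compared between genotypes on log2(FPKM + 1) with limma 3.58.1 (R 4.3.3, variance trend, no covariate), two-sided, with Benjamini-Hochberg adjustment over all of them at 0.05. This scale understates changes of low genes. Folds are ratios of mean FPKM, and SE are limma's. A gene can pass the filter through the genotype where it is high alone, as Snai1, Col3a1, Lrrc32 and Peg10 did through KO and Fmod through WT. Such genes are in the counts of their lists, and their folds rest on low values in the other genotype. The fit was tested on simulated data with independent noise and 50 genes changed at each size. It called 16% of changes of 0.25 on the log2 scale, 72% of those of 0.5 and 100% of those of 1. Of unchanged genes it called 0.0344%. The split among KO libraries was not simulated. Positions are those of GENCODE M21 (GRCm38), matched by gene ID for 29384 of 29462 genes. Values of overlapping genes are uncertain, since the use of strand by the counting step is not given here. The 10 genes, the lists and the markers were chosen with earlier results of these data known. Named genes are the 10, in each list the 3 called genes of lowest p, and the 3 nearest profiles; others are said to be chosen after their values were seen. A gene that this rule names is not reported here. Alternatives covered pseudocounts of 0.1 and 0.01, the filter, 3 scalings, the variance model, library weights, an exact permutation test, a replicate block and each library left out; KO libraries 1 to 4 alone and protein coding genes alone were added after seeing the data.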

Additional observations from a re-analysis of the deposited data

Results flagged for a closer look

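In 2 of 20 sets of 6 libraries (10 genes in each genotype) 1 library lay far from the rest, where chance gives about 1 in 20. WT replicate 4 held 13.54 FPKM of Tgfbr1, and the next highest WT library 12.07. WT replicate 6 held 53.38 FPKM of Eng, and the next highest WT library 47.82. Both genes passed the test with any 1 library left out (limma, adjusted p at most 0.00054 for Tgfbr1 and 2e-07 for Eng).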

How the results depend on the processing

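For the 10 genes, 241 of 250 values under other settings kept their direction and their side of the threshold. The exceptions were Smad3, which lost its call in 7 settings, among them TPM scaling and the replicate block (adjusted p = 0.083), and Tgfbr3, which passed with weights per library (log2 difference 0.23, adjusted p = 0.00022) and when KO libraries 5 and 6 were left out. Of the 10, 8 to 10 were called in every setting. A filter at 5 FPKM left fewer genes to test: 4775 genes were called where the main filter gave 7515, and 5 of 5 activin genes instead of 8 of 10; with no filter 20 of 29 TGF-beta induced genes were called instead of 12 of 17, a similar share (69% and 70.6%). Fst, at -0.02 and not called with all libraries, was higher in KO with weights per library (0.15, adjusted p = 0.033) and when KO libraries 5 and 6 were left out (0.17, adjusted p = 0.019). The replicate numbers did not pair the samples: deviations of same-numbered libraries correlated at -0.273 to -0.0582, and no WT library correlated best with its own number. With the number as a replicate block 6959 genes and 8 of the 10 were called. An exact permutation test per gene over the libraries, two-sided and unadjusted, gave p = 0.00216, the smallest this design allows, for 8 of the 10, 0.00433 for Smad3 and 0.714 for Tgfbr3. Over scalings, the median difference of all genes stayed between -0.038 and 0.029. Depth in reads is unknown, so the precision of low values cannot be given.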
